A study of Mus musculus with 8 samples.

Results

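Htra1, Prss35 and Wfdc1 encode secreted proteins of protease biology, and all 3 genes were lower in mouse neural stem cells after knockdown of the long non-coding RNA Paupar. They were found by gene name in a table of 155 distinct rows, and each of the 3 names matched 1 row. The cells came from the subventricular zone, the germinal niche along the lateral ventricles, and were expanded with EGF and FGF-2 at 20 ng/mL each. RNA sequencing after depletion of ribosomal RNA covered 8 samples, 4 labelled shPaupar, for a short hairpin RNA against Paupar, and 4 labelled control. The nucleofection protocol in the labels is the same for both groups, and the labels do not say what hairpin or vector the controls carried, nor the age, sex or strain of the mice, nor whether samples within a group were separate cultures. The authors' deposited table gives 1 level per group and gene, so the levels carry no replicate error, the depth is unknown, and only the authors' p-values can set a difference against sample spread, which may be technical. The 3 genes were picked with this comparison known, so their values are a description and not a test. Paupar has 0 rows here, and the knockdown itself was not checked.

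HtrA1 is a secreted serine protease with a trypsin-like catalytic domain and a PDZ domain, and is known for cleaving extracellular matrix proteins and for restraining signalling by the TGF-beta family. In the human brain it is known from inherited small-vessel disease caused by its loss. Prss35 belongs to the trypsin family by sequence and is secreted, but it is classed as an inactive member because the active-site serine is not conserved. Wfdc1, first described in prostate stroma as a growth-inhibitory protein, carries a WAP domain, the cysteine-rich fold of secreted inhibitors of serine proteases such as SLPI and elafin.

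The reference coding sequences show what each gene brings to this group. Stretches of 1 coding transcript per gene, the first that GENCODE M21 numbers (assembly GRCm38, all on the plus strand), are given 5′ to 3′. Capitals mark the codon of the active-site histidine and that of the active-site serine in Htra1, codons 220 and 328 of 480. In Prss35 they mark the histidine codon, codon 169 of 409, and codon 342, a threonine codon in the segment where trypsin-like proteases carry the active-site serine. In Wfdc1 capitals mark the 8 cysteine codons of the WAP domain, within codons 55 to 97 of 211.
Htra1 histidine: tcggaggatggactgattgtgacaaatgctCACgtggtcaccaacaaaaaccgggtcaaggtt
Htra1 serine: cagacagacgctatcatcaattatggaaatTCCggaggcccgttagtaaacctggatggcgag
Prss35 histidine: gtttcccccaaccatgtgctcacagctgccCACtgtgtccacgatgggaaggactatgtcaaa
Prss35 threonine: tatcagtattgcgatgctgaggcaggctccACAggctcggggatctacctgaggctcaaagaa
Wfdc1 WAP domain: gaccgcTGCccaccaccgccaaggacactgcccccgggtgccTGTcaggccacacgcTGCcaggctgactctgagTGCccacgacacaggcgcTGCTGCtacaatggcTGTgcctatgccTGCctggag

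The Htra1 histidine stretch lies at chr7:130962028-130962090 in exon 3, and the serine stretch is spliced from exons 4 to 6 between chr7:130979475 and 130981665. Both Prss35 stretches lie in exon 2, at chr9:86755653-86755715 and chr9:86756172-86756234. The WAP stretch lies in exon 2 of Wfdc1 at chr8:119679310-119679438. Cysteine codons made up 6.16% of the Wfdc1 coding sequence, 3.33% of that of Htra1 and 1.96% of that of Prss35. By sequence, the group therefore holds 1 protease with its histidine and serine codons in place, 1 protease-like gene with a threonine codon where the serine would stand, and 1 gene with an inhibitor-type domain.

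All 3 genes were lower in shPaupar cells, with adjusted p-values from 2.99e-07 to 0.000120 in the authors' deposited table. Every one of the 155 rows passes an adjusted p of 0.05 in the authors' deposited table (100%), because only changed rows are listed. Of those rows 65.2% were lower in shPaupar cells, as were 71.1% of the 114 rows whose locus equals an annotated gene span, a set that includes the 3 genes, so a fall of 3 of 3 is read against a background in which most rows fell. For rows that equal a gene span, the adjusted p-values of the authors' deposited table imply about 29506 tests and a largest rank of 142, or 0.481% of them. That rank is no count of the 155 rows, since 6 of the 23 rows used for it gave no whole rank and the rows with other loci were left out. In cultures of many cells, fewer expressing cells and less RNA per cell cannot be told apart.

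Htra1, the gene with both active-site codons, had the smallest relative fall of the 3 and the smallest p. Its level was 3390 in shPaupar cells, against 5133 in control cells of the authors' deposited table. The knockdown group thus stood at 66.0% of control, a log2 ratio of -0.60, or 1.51-fold lower. The authors' deposited table gives it an adjusted p of 2.99e-07, and 4 of the 114 rows that equal a gene span had a smaller p. If that p came from a Wald test, which is an assumption, the log2 fold change had a standard error of 0.091, and the 95% interval ran from -0.78 to -0.42, or 58.4% to 74.7% of control.

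Prss35, the protease-like gene, fell by a similar proportion. Its level was 945 in shPaupar cells and 1515 in control cells of the authors' deposited table, which is 62.4% of control (log2 ratio -0.68, 1.60-fold lower). An adjusted p of 3.26e-05 stands in the authors' deposited table, with an assumed standard error of 0.12 and an interval from -0.92 to -0.45. The intervals of Htra1 and Prss35 overlap, and their log2 ratios differed by -0.083 (Prss35 minus Htra1). A difference in the size of their falls is thus not resolved by these values.

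Wfdc1, the gene with the WAP domain, had low levels and the largest relative fall of the 3. Its level was 1.05 in shPaupar cells, against 13.1 in control cells of the authors' deposited table. That is 12.5-fold lower, a log2 ratio of -3.64, with an adjusted p of 0.000120 per the authors' deposited table. Wfdc1 was the 1 gene of the 3 past a log2 ratio of -1, a fall shared by 18.9% of the 132 rows above 0 in both groups. With rows listed at 0 in a group counted too, 36 of the 155 rows had such a fall. The assumed standard error, 0.65, was much wider than for Htra1 and Prss35, and the interval ran from -4.77 to -2.23, or 3.67% to 21.4% of control. This interval overlaps neither that of Htra1 nor that of Prss35.

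**Figure D1:**
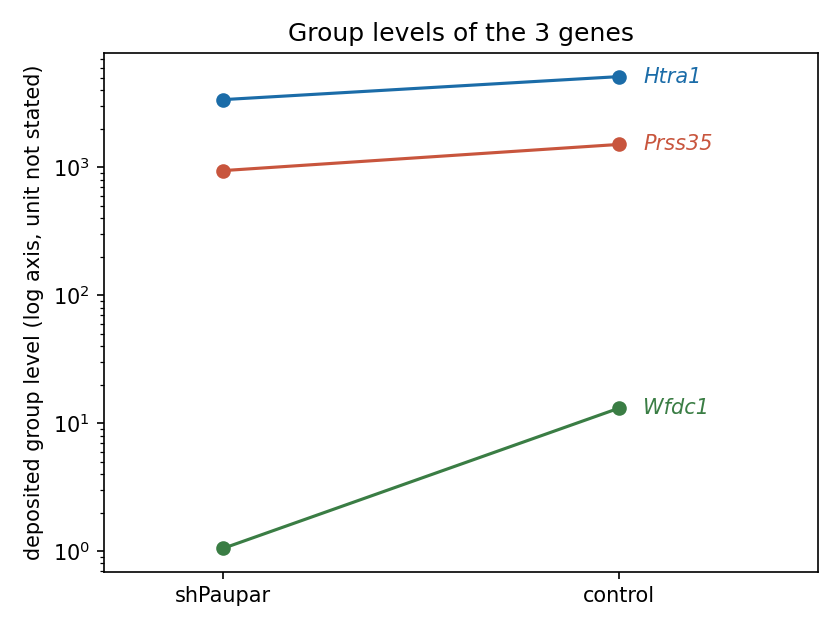
Deposited group levels of Htra1, Prss35 and Wfdc1 on a log axis, 1 value per group, with shPaupar on the left and control on the right. Htra1 and Prss35 run nearly parallel (66.0% and 62.4% of control), and Wfdc1 stands at 1.05 in shPaupar cells, against 13.1 in control cells; no error bars can be drawn from these values.

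To set the expression of the genes side by side, levels were divided by the exonic length of that transcript (2041, 3444 and 1371 bases for Htra1, Prss35 and Wfdc1). Per kilobase, Htra1 had 1661 in shPaupar and 2515 in control cells, as computed from the authors' deposited table. Prss35 had 274 per kilobase in shPaupar and 440 in control cells of the authors' deposited table. For Wfdc1 the values were 0.767 and 9.59 per kilobase in shPaupar and control cells of the authors' deposited table. Counted over the whole gene, exonic bases number 2879 in Htra1 and 1539 in Wfdc1. With these lengths the values per kilobase of both genes would be lower. The order Htra1, Prss35, Wfdc1 was the same in both groups and with the undivided levels, which matters because it is not stated whether the deposited levels are already scaled by length.

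Among these rows, all selected by adjusted p, larger changes were listed at lower deposited levels, with levels undivided by length here. Over the 132 rows above 0 in both groups, Spearman's rho between the mean level and the absolute log2 ratio was -0.82, and over the 103 of them that equal a gene span it was -0.79. These are descriptions across genes of the same libraries that were selected by p-value, and carry no p. Over those 103 rows, rho between the mean level and the assumed standard error was -0.86. Where that error is wide, only a large change can be listed, so the selection alone can give a negative rho. Whether genes of low level responded more was not tested. Rows with a control level under 20 had absolute log2 ratios of at least 1.37 (n = 14, Wfdc1 among them) in the authors' deposited table. Rows from 500 up to 2000, where Prss35 lies, started at 0.37 (n = 34), and those from 2000 up to 8000, where Htra1 lies, at 0.34 (n = 32). No row with a control level under 20 had a fall as small as that of Htra1 or Prss35. The median assumed standard error of those rows was 0.91, so a fall that small could hardly pass the adjusted p filter. Nothing is read from its absence.

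**Figure D2:**
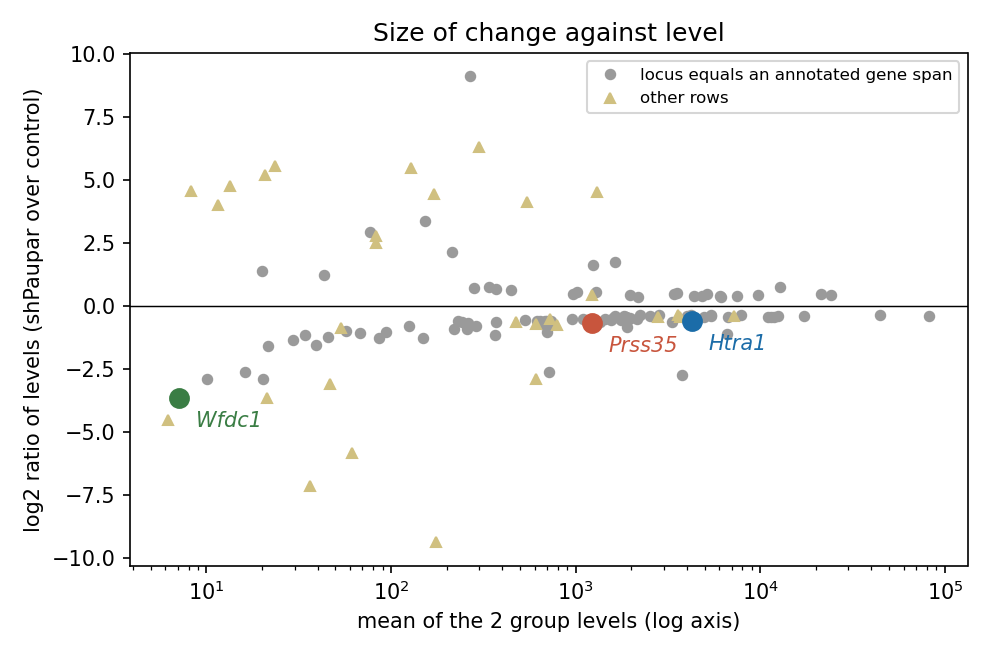
Log2 ratio of the group levels (shPaupar over control) against the mean of both levels (log axis) for the 132 rows above 0 in both groups; circles are rows whose locus equals an annotated gene span, triangles the other rows, and the horizontal line marks no change. Absolute ratios shrink as the level grows (rho -0.82) in these rows, which were all selected by adjusted p. Wfdc1 lies at the low end and Htra1 and Prss35 in the dense band of moderate falls.

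Among rows of like undivided level, the falls of Htra1 and Prss35 were somewhat larger than the median. Within 2-fold of the control level of Htra1, 12 other rows that equal a gene span were lower and 10 higher. The median log2 ratio of those 12 was -0.41, and 3 of them fell further than Htra1. Around Prss35, 28 such rows were lower and 7 higher, with a median of -0.54 for the lower ones, 7 of which fell further than Prss35. Around Wfdc1 there were 1 lower and 3 higher rows, too few for a median. Of the 74 lower rows that equal a gene span and lie above 0 in both groups, Wfdc1 had the largest relative fall, Prss35 took place 30 and Htra1 place 40. In all, 81 rows that equal a gene span were lower, and those listed at 0 have no ratio and are not ranked. Among rows with other loci, some fell further than Wfdc1, such as Itpr1 (-9.40) and Gkap1 (-7.14). In absolute log2 ratio Wfdc1 took place 17 of the 132 rows above 0 in both groups. Each of these positions is within a table chosen for change, and none was tested.

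The rows most like each gene were taken by distance in the plane of log2 mean level and log2 ratio, over the 2 group values only. For Htra1 these were Kcnip3, a potassium channel-interacting protein gene (3427 in shPaupar, 4569 in control cells, log2 ratio -0.41), the nuclear receptor gene Rora (-0.35) and the glycolytic aldolase gene Aldoc (-0.43) of the authors' deposited table. The fall of Htra1 was larger than each of these. For Prss35 they were the secreted phospholipase gene Pla2g12a (960 in shPaupar, 1607 in control cells, -0.74), the orphan receptor gene Gpr158 (1062 in shPaupar, 1648 in control cells, -0.63) and the complement regulator gene Susd4 (-0.50) of the authors' deposited table. The 2 nearest to Prss35 lie on either side of it in size of fall. Wfdc1 had no close match: the nearest were the calcium-binding protein gene Cabp7 (2.37 in shPaupar, 17.7 in control cells, -2.90), the morphogen gene Shh (4.48 in shPaupar, 27.7 in control cells, -2.63) and the growth factor gene Igf2 (-2.91) of the authors' deposited table. Distances were 0.21 to 0.27 for Htra1, 0.088 to 0.24 for Prss35 and 0.90 to 1.67 for Wfdc1.

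Rows nearest in control level alone included genes that moved the other way. Beside Htra1 were Pnmal2 (6916 in shPaupar, 5238 in control cells, log2 ratio 0.40) and the interferon-induced GTPase gene Gbp3 (0.35), both higher in the authors' deposited table, and Rora. Beside Prss35, after Pla2g12a and Gpr158, stood Parp9 (0.43, higher). Beside Wfdc1 stood the potassium channel subunit gene Kcnmb1 (29.0 in shPaupar, 11.2 in control cells, 1.37), Cabp7 and the protocadherin gene Pcdha11 (2.95) of the authors' deposited table. Gbp3 and Pcdha11 belong to gene families with near-identical sequences or shared exons, so their counts are uncertain. A low control level was thus found with rises as well as with falls.

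**Figure D3:**
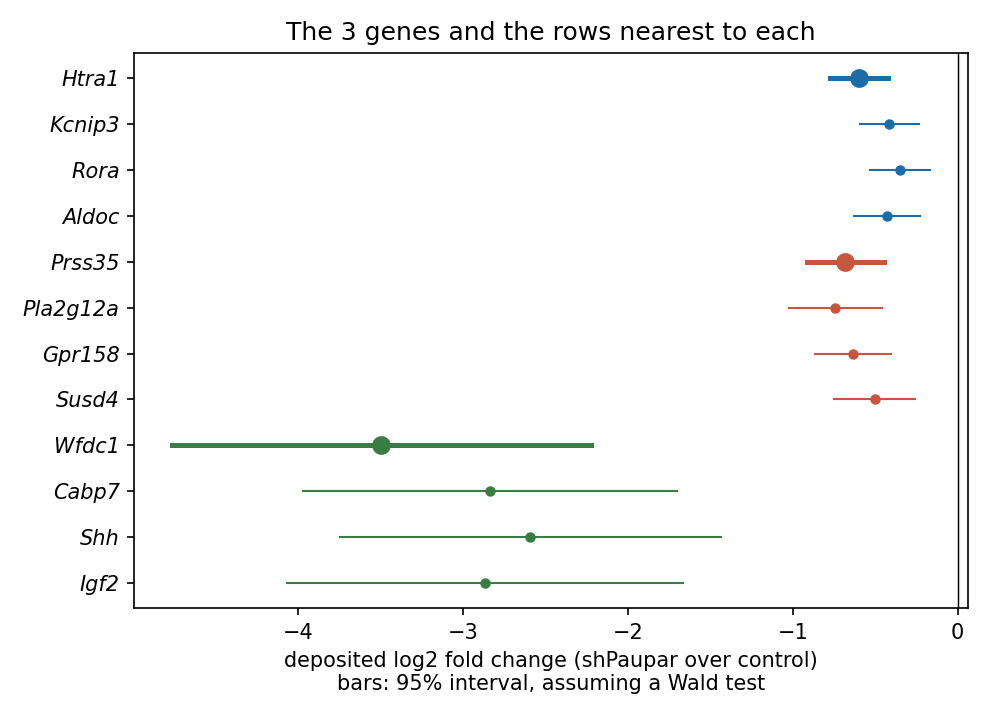
Deposited log2 fold change (shPaupar over control) of the 3 genes (large points) and of the 3 rows nearest to each in level and ratio (small points, same colour); bars are 95% intervals that assume a Wald test. Intervals are narrow for Htra1 (-0.78 to -0.42) and Prss35 (-0.92 to -0.45) and wide for Wfdc1 (-4.77 to -2.23) and its low-level neighbours.

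The fold change of Wfdc1 depends on how low levels were handled, and that of the other genes does not. The ratio of the 2 levels and the deposited log2 fold change are -3.64 and -3.50 for Wfdc1, a gap of 0.15, while for Htra1 and Prss35 they are equal to 2 decimals in the authors' deposited table. Over 15 rows whose smaller level is under 5, the median gap was 0.17, against 9.7e-05 over 93 rows with both levels of at least 100. The constant that, added to both levels, makes their ratio equal the deposited fold change was 0.12 for Wfdc1. Over the 23 rows listed at 0 in a group of the authors' deposited table it was 0.122 to 0.129, with a median of 0.124. Over the 15 rows above 0 whose smaller level is under 5, Wfdc1 among them, it ran from -0.047 to 0.179 with a median of 0.12, so a single constant does not hold for every low row. For Wfdc1 the deposited fold change is smaller in size than the ratio of its levels.

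**Figure D4:**
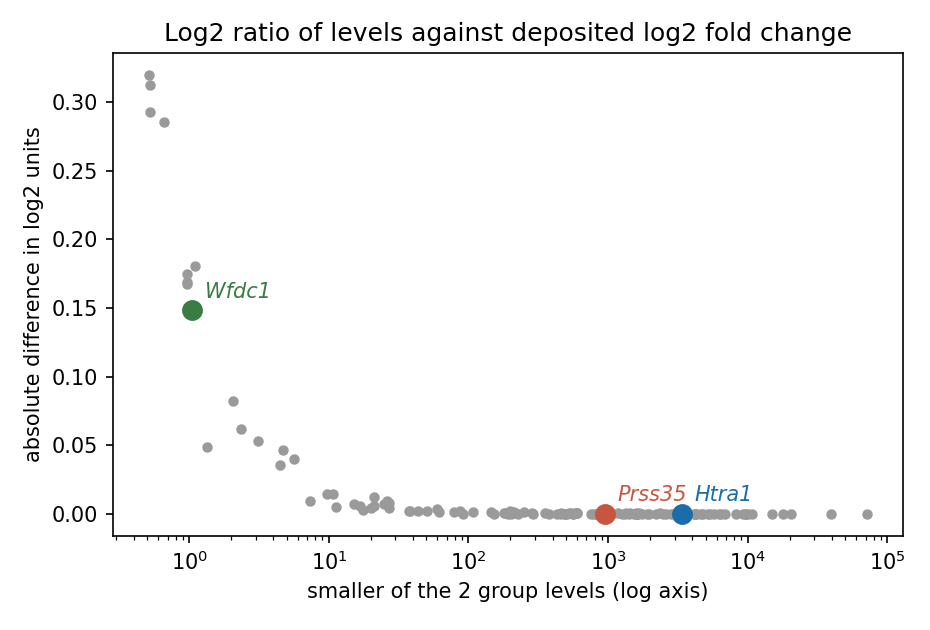
Absolute difference in log2 units between the ratio of the group levels and the deposited log2 fold change, against the smaller of the group levels (log axis), for the 132 rows above 0 in both groups. The difference is 0.15 for Wfdc1 and close to 0 for Htra1 and Prss35.

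The genes lie on separate chromosomes, and the locus listed for each equals the GENCODE M21 span of the whole gene. Htra1 (ENSMUSG00000006205) spans chr7:130936111-130985660, with 9 exons in its 1 protein-coding transcript and 4 further non-coding transcripts, 2 of them retained-intron forms. Prss35 (ENSMUSG00000033491) spans chr9:86743649-86758443 and has 2 exons, with the whole coding sequence in the second. Wfdc1 (ENSMUSG00000023336) spans chr8:119666365-119688222, with 7 exons. The nearest other row of the table was 2.68 Mb from Htra1, 17.4 Mb from Prss35 and 2.58 Mb from Wfdc1.

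Genes on the opposite strand overlap Htra1 and Wfdc1 but not Prss35. All 49550 bases of Htra1 lie inside the annotated span of Fgfr2, a fibroblast growth factor receptor gene. That span is far longer than Htra1, from chr7:130162451 to 133123350, and 0 exonic bases of Fgfr2 lie inside Htra1. The antisense gene Gm32352 covers the first 4517 bases of Wfdc1, with 234 exonic bases there and 0 shared between exons of the 2 genes. Neither Fgfr2 nor Gm32352 has a row here. Whether the authors counted by strand is not given in the sources used here, so reads from the introns of Htra1 or Wfdc1 could not be assigned to a strand.

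**Figure D5:**
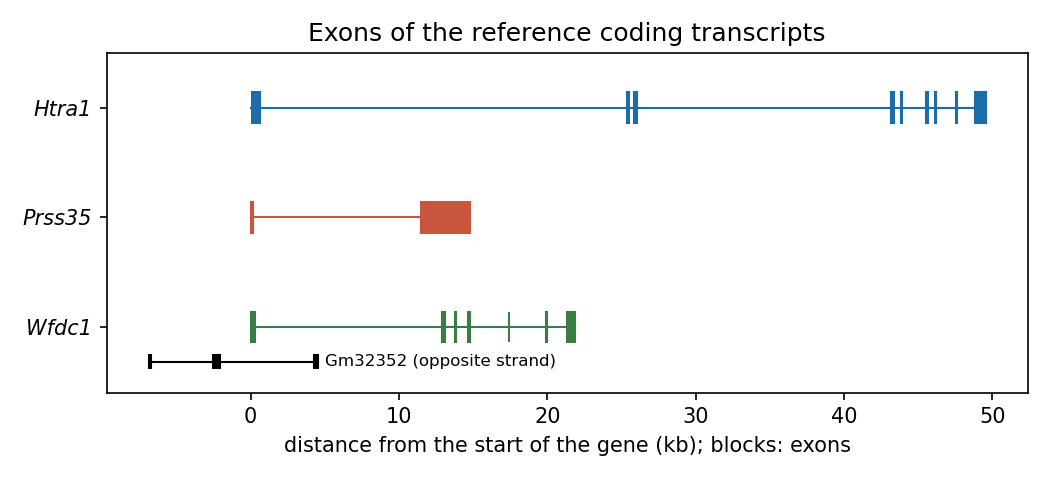
Exons (blocks) of the reference coding transcripts of Htra1, Prss35 and Wfdc1, drawn to scale from the start of each gene in kb, with the antisense gene Gm32352 and its exons in black under Wfdc1. Prss35 has 2 exons and no overlapping gene, and Gm32352 runs across the first 4517 bases of Wfdc1; the span of Fgfr2, which holds all of Htra1, is not drawn.

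Promoter sequences are shown as a description, and a link between them and the falls was not tested. The RefSeq promoter table (GRCm38.p6) matched 2 of the 3 genes, Htra1 and Prss35. The 250 bases before the RefSeq start are printed for each, on the plus strand, at chr7:130935953-130936202 and chr9:86743383-86743632. Capitals mark the GC box (GGGCGG), the CCAAT box (CCAAT) and the core of the cyclic AMP response element (TGACG), on either strand, none of which overlap here.
Htra1 promoter: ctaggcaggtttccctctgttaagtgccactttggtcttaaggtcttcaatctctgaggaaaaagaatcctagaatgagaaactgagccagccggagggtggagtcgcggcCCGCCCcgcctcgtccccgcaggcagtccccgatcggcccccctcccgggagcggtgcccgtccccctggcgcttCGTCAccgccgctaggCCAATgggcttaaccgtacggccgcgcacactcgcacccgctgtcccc
Prss35 promoter: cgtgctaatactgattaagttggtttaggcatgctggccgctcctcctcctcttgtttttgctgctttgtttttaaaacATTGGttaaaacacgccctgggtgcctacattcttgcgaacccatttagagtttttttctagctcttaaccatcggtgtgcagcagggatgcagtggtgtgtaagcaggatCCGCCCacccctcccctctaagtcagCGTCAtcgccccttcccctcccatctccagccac

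Each promoter held 1 match to each of these 3 motifs. Over 32841 RefSeq promoters of the same length, the GC box was found in 32.8%, the CCAAT box in 33.9%, the response element core in 17.8% and all 3 in 3.04%. The TATA box (TATAAA, 12.4% of promoters) and the E-box (CANNTG, 66.2%) had 0 matches in both windows. The promoters differed in base composition: that of Htra1 had 22 CpG dinucleotides and 64.8% GC, and that of Prss35 had 8 CpG and 50.8% GC, against medians of 6 CpG and 52.4% GC. The 3 motifs joined in the share of 3.04% are those that matched both windows, so that share is no test and nothing is read from it. These matches describe letters in the windows and not binding.

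Few genes from lists of protease biology were among the rows. Of 5 lists with 130 distinct genes, chosen with earlier results of these data known, 4 genes had a row, 3 lower and 1 higher. That is 3.08% of the lists, beside 0.481% of the tests implied above, and 65.2% of all rows were lower. The 0.481% was implied from rows that equal a gene span, whereas the list share also counts Adamts5 and Ctnnb1, whose loci do not. The lists were not chosen independently of these rows either, so nothing is read from that difference. None of the 30 further genes of secreted serine proteases and the HtrA family had one, and none of the 36 of WAP domain and other serine protease inhibitor genes, so neither the close relatives Htra2, Htra3 and Htra4 nor inhibitors such as Slpi and Serpine2 can be described. Of 22 metalloprotease and inhibitor genes the 1 row was Adamts5, which encodes an aggrecan-cleaving metalloprotease. The authors' deposited table puts it at 592 for shPaupar and 992 for control cells, a log2 ratio of -0.75 with an adjusted p of 0.000141, and the listed locus differs from the annotated gene span. A search of the gene descriptions for protease and inhibitor words found 4 of the 155 rows, of which Adamts5 is the 1 that the choice of the 3 genes did not supply. Such a search misses genes whose description lacks these words, so it is no full count of proteases and inhibitors among the rows.

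Of 31 genes listed as substrates or ligands linked to HtrA1, 2 had a row (6.45%, beside 0.481% of the implied tests). This list and that of receptors below are among the 5 lists above, so nothing is read from their shares. Igf2 had a level of 4.73 for shPaupar against 35.6 for control cells, a log2 ratio of -2.91 with an adjusted p of 0.00175 per the authors' deposited table. The row named Ctnnb1 was higher, with 2513 for shPaupar against 108 for control cells of the authors' deposited table, but its locus covers only part of the gene. Of 12 receptor genes the 1 row was Sorl1, a sorting receptor, with 1542 for shPaupar against 2149 for control cells, a log2 ratio of -0.48 and an adjusted p of 0.00203 per the authors' deposited table. The levels of list members without a row are not known here, so an empty list does not show that its genes were unchanged.

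Of 47 cell type marker genes, 4 had a row (8.51%), beside 0.481% of the implied tests. These 4 were lower, as were 65.2% of all rows. The lists were chosen with earlier results of these data known, so nothing is read from the shares of markers with a row. Of 11 neural stem cell and astroglial markers, 3 had a row, namely Aqp4 (3118 in shPaupar, 4268 in control cells, log2 ratio -0.45), Aldoc (4200 in shPaupar, 5655 in control cells, -0.43) and Slc1a2 (39308 in shPaupar, 50039 in control cells, -0.35) of the authors' deposited table. Of 4 neuroblast markers, Dcx had a row, with 152 for shPaupar against 286 for control cells of the authors' deposited table (-0.91). Aqp4 is given with coordinates other than its GENCODE span, a kind of row left out when the tests were implied. The summed levels of these lists over all members cannot be formed, and the markers of dividing progenitors, oligodendrocyte lineage, microglia, endothelial, mural and fibroblast, ependymal and choroid plexus cells had 0 rows. The part of cell composition in the falls of Htra1, Prss35 and Wfdc1 was not tested. Nes, Sox2 and Gfap, which define the labelled cell type, are not among the rows used here, so the label was not checked by them.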

How the data were processed

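RNA sequencing libraries of 4 shPaupar and 4 control samples were summarised by the authors in 1 table. StringTie, TopHat2, HISAT2, HISAT and CASAVA were used per the submitters' processing notes, which give neither their order nor a version. Genome build, counter, statistical test and strand setting were not given in the sources used here. For each group, 1 level per row was deposited, a signal whose normalization is not stated. Fold changes were deposited as log2 values, with raw and adjusted deposited p-values from methods the file header does not name.

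Of 156 rows, 1 repeats another and was counted once, and 1 is shifted by 1 column and was read accordingly. Levels below 1e-10 were taken as 0 (23 rows). Log2 ratios were computed from the 2 levels with no pseudocount. Standard errors were obtained by dividing each deposited log2 fold change by the z value of its p-value, which assumes a Wald test. The number of tests was found from ranks, p times tests over adjusted p, which were whole within 0.02 for 17 of 23 rows with p of at least 0.0001. Whether the authors' p-values came from a Wald test was not tested, and neither was the implied number of tests. No test between samples was possible. The genes, lists and named-gene rule (members, list genes with a row, and the 3 nearest rows by each distance, leaving out unnamed loci, Gm and Rik symbols and pseudogenes) were chosen with earlier results of these data known. Rows were taken as whole genes where the locus equals a GENCODE M21 gene span, which can include a few non-coding transcripts of the same span. Alternatives were pseudocounts of 0.1, 1 and 10, the deposited fold change, a constant chosen after the data were seen, centring, a threshold of 0.01, a minimum absolute log2 ratio of 1 and level minimums of 10 and 100. Python 3.11.15, pandas 2.3.3, NumPy 2.4.6, SciPy 1.17.1 and matplotlib 3.10.9 were used.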

Additional observations from a re-analysis of the deposited data

How the results depend on the processing

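A constant added to both levels cannot turn the sign of a ratio, so the pseudocounts bear on the size of change only. Wfdc1, at -3.64, moved to -2.79 with a pseudocount of 1 and to -1.07 with a pseudocount of 10, since both exceed or approach its level in shPaupar cells, whereas Htra1 and Prss35 changed by less than their assumed standard errors under every pseudocount. Relative to the median log2 ratio of the 103 rows that equal a gene span and lie above 0 in both groups, -0.50, Htra1 was at -0.10 and Prss35 at -0.18, and Wfdc1 at -3.15. That median belongs to rows selected for change and is no scaling factor of the libraries. With an absolute log2 ratio of at least 1, 1 of the 3 genes was left (Wfdc1), against 18.9% of the rows above 0 in both groups with a fall of that size. A level minimum of 100 in either group left 2 of the 3 genes, and Wfdc1 was the gene lost. The 101 lower rows became 65 at an adjusted p of 0.01 and 36 with an absolute log2 ratio of at least 1, counting rows listed at 0 in a group. The rank correlation between level and size of change stayed within 0.1 of its value with the control level, with gene-span rows only and with a pseudocount of 1, while a level minimum of 10 removed no row and tested nothing. No paired analysis was possible because the table gives 1 value per group, and for the same reason no replicate could be left out.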
